A study of Drosophila melanogaster with 2 samples.

Results

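Transfer RNA (tRNA) genes were examined for chromatin recovered with CG18476-eGFP in Drosophila melanogaster embryos. They were taken as every gene that Ensembl annotates with the biotype tRNA on the 6 major chromosome arms, which gave 290 of 18164 genes. Of these, 98 lay on 2R, 79 on 3R, 48 on 3L, 41 on 2L and 24 on X, and none on the small chromosome 4. The study was a ChIP-seq experiment, in which chromatin bound to a tagged protein is precipitated and sequenced. Its single group was whole embryos of 0 to 24 h with males and females pooled, from a stable transgenic line that makes the CG18476 protein with GFP at its C-terminus, and anti-GFP antibody was used on sonicated chromatin. The group has 2 biological replicates, 1 library each. Whole embryos mix all cell types of all embryonic stages, so the cells that gave a region are not known. Input to the peak lists included a control, per the deposited README texts. An untagged strain or a mock precipitation was not analysed here.

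A tRNA gene is a short transcription unit copied by RNA polymerase III. Its promoter lies inside the transcribed part, as an A box near the start and a B box further along, which the factor TFIIIC binds before TFIIIB is placed just upstream and brings in the polymerase. Transcription ends at a run of T bases. Fly genomes carry many near-identical copies of each tRNA, often in clusters and often within introns of protein-coding genes or close to their promoters. The 290 genes covered 22 isotypes, the class set by the amino acid that the tRNA carries, with initiator and elongator methionine tRNAs apart, and 44 anticodons. Their median length was 73 bp, with a range of 71 to 186 bp. Only 95 different gene sequences were present, and 238 genes had at least 1 identical copy elsewhere on the arms. By position, 199 genes fell into 69 clusters of up to 7 genes with neighbouring starts within 2 kb of each other, and 91 genes stood alone. A total of 134 genes lay inside protein-coding genes, and 32 had a protein-coding transcription start site (TSS) within 500 bp.

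Near a tRNA gene the recovered chromatin was often listed but rarely strong. The authors deposited a pooled list of regions from the reads of both libraries, a list for each library, and a thresholded set of 3995 peaks selected by the irreproducible discovery rate. The pooled and replicate lists hold background regions as well as peaks, per the README texts, so a summit there marks a listed region and not always a peak. The thresholded set was the same as the 3995 regions of highest signal in the pooled list. A gene was counted when a summit, the highest point of a region, lay within 500 bp of its TSS. In the thresholded set 13 of 290 tRNA genes were counted, or 4.48% (2.41 to 7.54, exact binomial 95% interval, here and below), against 14.7% of all genes and 17.7% of protein-coding genes. In the pooled list it was 156 tRNA genes, or 53.8% (47.9 to 59.6), against 45.5% of all genes and 50.1% of protein-coding genes. At this distance the tRNA share was thus above the share of all genes in the pooled list and below it in the thresholded set. Other noncoding kinds also had low thresholded shares, at 5.95% of small nucleolar RNA genes and 4.88% of genes of biotype ncRNA. For the 32 small nuclear RNA genes it was 12.5%. In the pooled list the shares were 35.7%, 30.1% and 62.5% in the same order. A protein-coding gene was counted by the TSSs of all its transcripts, which gives it more chances than a tRNA gene with 1 start. Counted by 5′ ends alone, 15.6% of protein-coding genes were in the thresholded set and 47.0% in the pooled list. The pooled order depended on the distance. At 250 bp the pooled share of tRNA genes was 32.8%, below the 37.6% of protein-coding genes (34.2% by 5′ ends). At 1000 bp it was 69.7%, above their 59.7% (57.7% by 5′ ends). The intervals cover the counting of genes only, and with 1 group of 2 libraries there was no test between groups.

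**Figure D1:**
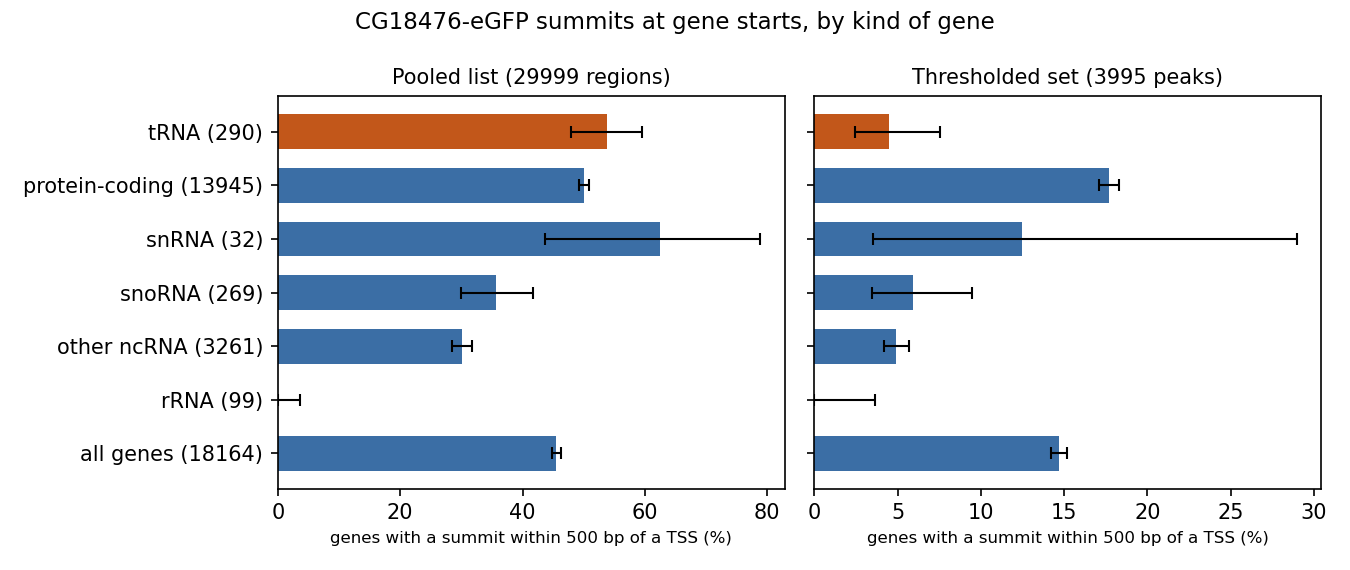
Share of genes (%) with a summit within 500 bp of a TSS in the pooled list (left) and the thresholded set (right), by kind of gene with the number of genes in brackets; whiskers are exact binomial 95% intervals. The tRNA bar stands at 53.8% on the left and 4.48% on the right, against 50.1% and 17.7% for protein-coding genes.

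Each library was also taken on its own. In replicate 1, 166 tRNA genes (57.2%) had a summit within 500 bp, against 46.8% of all genes and 51.7% of protein-coding genes. In replicate 2 it was 130 (44.8%), against 43.2% of all genes and 47.7% of protein-coding genes. By 5′ ends alone it was 48.8% of protein-coding genes in replicate 1 and 44.1% in replicate 2. The lists are about equally long, and replicate 1 listed more of the tRNA genes than replicate 2. A summit in both replicates was found at 108 tRNA genes (37.2%), against 33.9% of all genes and 38.7% of protein-coding genes. In replicate 1 alone it was 58 genes, in replicate 2 alone 22, and in neither 102. No summit in any of the lists was found at 95 tRNA genes. These counts were not taken over all genes, where replicate 1 also listed more (46.8%) than replicate 2 (43.2%).

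A contrast among near-identical copies was seen at 3 tyrosine tRNA genes on 3R, tRNA:Tyr-GTA-1-6, tRNA:Tyr-GTA-1-7 and tRNA:Tyr-GTA-1-8, which lie in tandem on the minus strand at 3R:8668116-8668208, 3R:8668612-8668705 and 3R:8669081-8669174 (dm6). They sit inside the overlapping genes p, named pink, whose product serves lysosome-related organelles, and CG8036. Only the start of tRNA:Tyr-GTA-1-8 had a thresholded summit within 500 bp. The peak near this gene (FBgn0012024) had a pooled signal of 442, with 220 in replicate 1 and 222 in replicate 2, and it ranked 103 in the pooled list. The other two genes shared 2 pooled summits, of signal 37.0 and 22.6. The first was at -148 bp from the start of tRNA:Tyr-GTA-1-6 and 349 bp downstream of the start of tRNA:Tyr-GTA-1-7. In the same range the strongest replicate 1 summit, of 19.6, lay at -347 bp from the start of tRNA:Tyr-GTA-1-6, and that of replicate 2, of 19.4, at -139 bp. The gene sequences are given because the copies are nearly alike: tRNA:Tyr-GTA-1-7 and tRNA:Tyr-GTA-1-8 differ at 2 of 94 bases, and tRNA:Tyr-GTA-1-6 is 93 bases long. Sequences are RefSeq's for the dm6 assembly, 5′ to 3′ on the gene's strand, and capitals mark the matches to the A box letters TNGCNNAGT and the B box letters GGTTCNANT.
tRNA:Tyr-GTA-1-6: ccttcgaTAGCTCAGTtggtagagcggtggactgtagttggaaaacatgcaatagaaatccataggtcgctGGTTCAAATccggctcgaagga
tRNA:Tyr-GTA-1-7: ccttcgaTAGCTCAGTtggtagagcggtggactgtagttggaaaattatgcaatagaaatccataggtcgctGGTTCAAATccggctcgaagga
tRNA:Tyr-GTA-1-8: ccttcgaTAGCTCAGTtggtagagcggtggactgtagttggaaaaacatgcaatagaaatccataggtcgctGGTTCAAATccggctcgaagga

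The thresholded summit near tRNA:Tyr-GTA-1-8 was not in the gene. It lay 238 bp from the tRNA start on its upstream side, in a peak of 327 bp at 3R:8669216-8669542, and 206 bp from a TSS of CG8036, whose product is a transketolase-like enzyme. The 101 bases around the summit, 3R:8669362-8669462, are given on the minus strand because they hold the strongest summit with a printed sequence here. They contain no base of a tRNA gene and no match to TATCGATA, the letters of the DNA replication-related element (DRE) found in many fly promoters.
summit near tRNA:Tyr-GTA-1-8: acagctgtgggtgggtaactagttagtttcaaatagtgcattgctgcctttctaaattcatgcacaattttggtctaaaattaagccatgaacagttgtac
A peak at the edge of a tRNA gene was seen at tRNA:Val-AAC-1-1, a valine tRNA gene at 3R:16321690-16321762. The signal was 84.9 in the pooled list, with 37.4 in replicate 1 and 52.5 in replicate 2. Its summit was 9 bp upstream of the tRNA start, 278 bp downstream of the start of the neighbouring phenylalanine gene tRNA:Phe-GAA-1-8 and 157 bp from a TSS of CG44044, within Sulf1, which encodes a sulfatase of heparan sulfate. Capitals in the 101 bases around that summit, 3R:16321631-16321731 on the plus strand, mark the 42 bases of tRNA:Val-AAC-1-1 that the window covers.
summit near tRNA:Val-AAC-1-1: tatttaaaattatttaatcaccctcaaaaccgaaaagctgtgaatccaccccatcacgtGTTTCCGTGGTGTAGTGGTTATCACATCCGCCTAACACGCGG

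Most thresholded peaks near tRNA genes were also near the start of another kind of gene. The 13 tRNA genes shared 11 peaks. At 9 of these a protein-coding TSS lay within 500 bp of the summit, against 1919 of all 3995 thresholded summits. Counting the TSS of any gene other than a tRNA, it was 10 of the 11. The tRNA start was nearer than any such TSS at 6 of the 11 peaks, and the other gene's start was nearer at 5. In 8 of the 11 the region was 430 bp wide.

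The exception, and the strongest of the 11, was at the threonine gene tRNA:Thr-TGT-2-3 (FBgn0266573) on 2R. The peak had 437 units of signal in replicate 1 and 481 in replicate 2, and 918 in the pooled list. It ranked 19 in the pooled list, and 17 and 20 in the lists of replicates 1 and 2. The summit lay 131 bp from the tRNA start on its upstream side, outside any protein-coding gene, and no other TSS lay within 500 bp of it. The nearest were those of tRNA:Thr-TGT-2-4 at 735 bp and, among other kinds of gene, of Smyd4-3, a SET and MYND domain gene, at 1029 bp. The gene is 1 of 5 identical copies. None of the other 4 had a pooled summit within 500 bp, including tRNA:Thr-TGT-2-4, its partner in a cluster of 2 genes. The copy tRNA:Thr-TGT-2-2 had summits in both replicate lists, at 13.0 for replicate 1 and 11.3 for replicate 2.

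The histidine gene tRNA:His-GTG-1-3, in a cluster of 4 histidine genes, had the third strongest of these peaks. Its pooled signal was 212, with 92.6 in replicate 1 and 119 in replicate 2, and the summit was 117 bp upstream of the tRNA start and 133 bp from the TSS of CG8490. Replicate 2 was higher than replicate 1 in 10 of the 11 peaks, of which the 2 at tRNA:Trp-CCA-2-2 overlap the same replicate regions. The median ratio of replicate 2 to replicate 1 was 1.12 at these 11 peaks, against 1.24 over all 3995. Over all 3995 the quartiles were 1.01 and 1.54, so replicate 2 was higher at most of them as well. All 11 peaks overlapped a listed region in both replicates, a match that selection for reproducibility in part fixes.

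Among the weaker peaks, that at the glutamate gene tRNA:Glu-TTC-1-5 had a pooled signal of 114, with 40.8 in replicate 1 and 69.8 in replicate 2. Its summit was 386 bp downstream of the tRNA start and 7 bp from the start of a small nucleolar RNA (snoRNA) gene. The valine gene tRNA:Val-CAC-2-5, which lies inside Naam, the nicotinamidase gene, had a peak of 110 (47.7 in replicate 1 and 63.7 in replicate 2) at 462 bp downstream and 437 bp from a TSS of Naam. In replicate 1 that region's own summit fell beyond 500 bp of the tRNA start. Both peaks were closer to the other gene than to the tRNA gene.

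The tryptophan gene tRNA:Trp-CCA-2-2 and the glycine gene tRNA:Gly-GCC-1-9 shared 2 peaks. One had a pooled signal of 85.5 and lay 193 bp upstream of the tryptophan gene's start and 94 bp from the TSS of CG30122. The other had a pooled signal of 68.0 with its summit 6 bp inside tRNA:Trp-CCA-2-2, and it was the only one of the 11 with the summit in a tRNA gene body. Both overlap the same region in each replicate, at 39.7 for replicate 1 and 44.4 for replicate 2. A second pair of the same isotypes, tRNA:Trp-CCA-2-3 and tRNA:Gly-GCC-1-12, shared a peak of 70.1 (32.8 in replicate 1 and 37.1 in replicate 2) at 195 bp and 487 bp downstream of their starts, 394 bp from the TSS of CG30389.

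The leucine gene tRNA:Leu-TAA-2-1 had a peak of 82.3, the only one with replicate 1 (47.8) above replicate 2 (40.4). Its summit was 172 bp upstream of the tRNA start and 403 bp from the TSS of CG13605, and Root, a gene for the ciliary rootlet, also had a TSS within 500 bp. The phenylalanine gene tRNA:Phe-GAA-1-2 on X had a peak of 79.8 (37.8 in replicate 1 and 40.8 in replicate 2) at 332 bp downstream. That summit was 27 bp from the TSS of RpL17, a gene for a protein of the large ribosomal subunit, and the snoRNA gene snoRNA:Psi28S-1232 had its start in range too. The 9 weaker peaks spanned 68.0 to 212 in pooled signal, while the lowest signal in the whole thresholded set was 60.6 and the median 98.2.

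**Figure D2:**
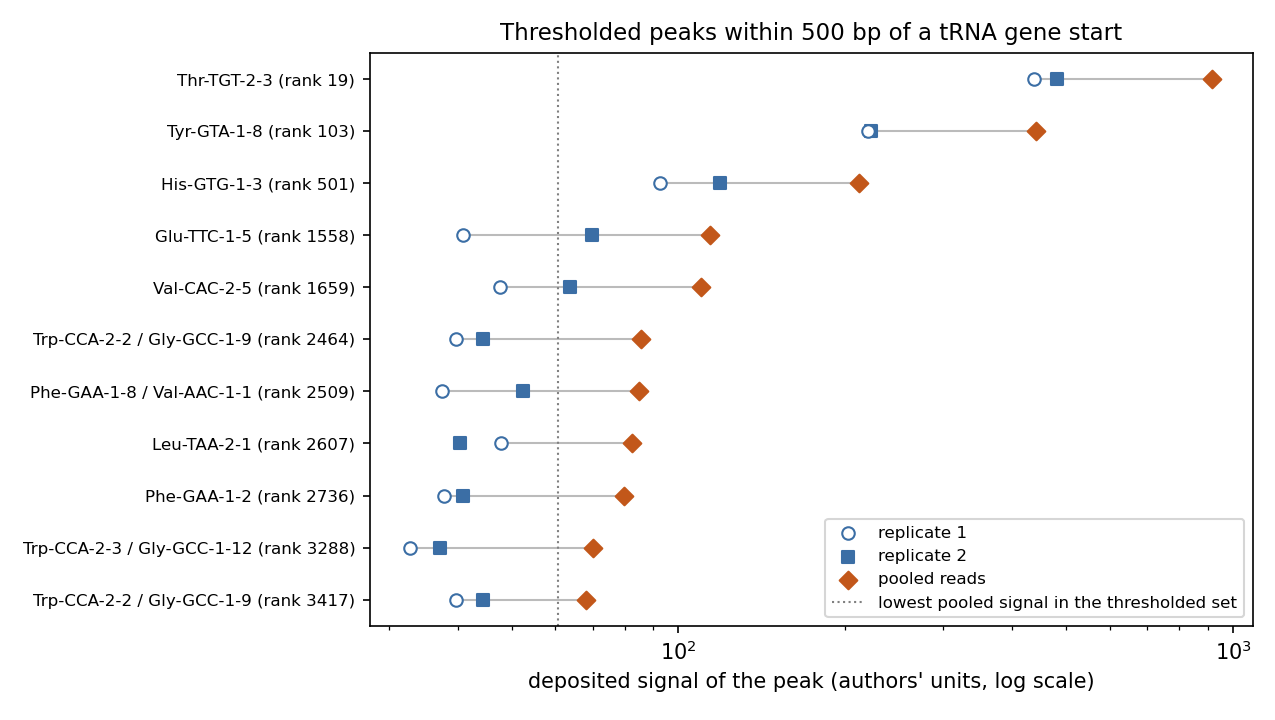
Deposited signal (authors' units, log scale) of the 11 thresholded peaks within 500 bp of a tRNA gene start, ordered by pooled rank; circles are replicate 1, squares replicate 2, diamonds the pooled reads, and the dotted line the lowest pooled signal in the thresholded set, 60.6. tRNA:Thr-TGT-2-3 at 918 and tRNA:Tyr-GTA-1-8 at 442 stand above the others, and the 2 rows of tRNA:Trp-CCA-2-2 show the same replicate regions.

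The 500 bp limit passes through a continuous spread of distances. Just inside it were tRNA:Glu-TTC-1-5 at 386 bp, tRNA:Val-CAC-2-5 at 462 bp and tRNA:Gly-GCC-1-12 at 487 bp. Just outside it were tRNA:Ile-AAT-1-9, 539 bp from a peak of signal 83.5, tRNA:Leu-CAA-2-2, 539 bp from one of 93.5, and tRNA:Trp-CCA-2-4, 587 bp from the peak of 70.1 already given. Within 1000 bp of a thresholded summit there were 26 tRNA genes, or 8.97%, against 20.4% of protein-coding genes. Within 2000 bp there were 54 and within 5000 bp 112. The other 178 genes lay further away, and the median distance over the 290 was 8566 bp. Genes of other kinds were not counted at 2000 and 5000 bp, so those counts and the median have no background beside them.

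Strong signal at tRNA genes went with a protein-coding start nearby. Of the 32 tRNA genes with a protein-coding TSS within 500 bp, 8 (25.0%, 11.5 to 43.4) had a thresholded summit, against 5 of the 258 without one (1.94%, 0.632 to 4.46). In the pooled list it was 25 of the 32 (78.1%, 60.0 to 90.7) against 131 of the 258 (50.8%, 44.5 to 57.0). Replicate 1 gave 25 and 141 genes in these classes, and replicate 2 gave 23 and 107. The interval around the 25.0% includes the 17.7% of protein-coding genes with a thresholded summit.

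Counting summits in place of genes gave the same picture, with each summit counted once. The pooled list held 133 summits within 500 bp of a tRNA start, of which 74 were near 1 tRNA gene and 59 near 2 to 4. Of the 133, 11 were in the thresholded set (8.27%, 4.20 to 14.3), against 13.3% of all 29999 pooled summits on the arms. With a protein-coding TSS within 500 bp of the summit it was 9 of 27 (33.3%, 16.5 to 54.0), against 24.4% of the 7824 summits near a coding TSS and away from tRNA genes. Without one it was 2 of 106 (1.89%, 0.229 to 6.65), against 9.41% (9.03 to 9.80) of the 22042 summits away from both kinds of start. Those 2 are the peaks at tRNA:Thr-TGT-2-3 and, with a snoRNA start beside it, tRNA:Glu-TTC-1-5. The class is set by the annotation, but a summit in a promoter and one at a tRNA gene within the same window cannot be told apart.

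The signal at tRNA genes away from coding starts was concentrated in the middle of the range. The median pooled signal of those 106 summits was 24.0 (quartiles 18.3 and 32.4), against 21.3 (17.1 and 31.7) at summits away from both kinds of start. A signal of 40 to 60 was found at 14.2% of the 106, against 7.92% of the others, and a signal of 60 or more at 1.89%, against 9.55%. At tRNA summits with a coding TSS the median was 37.0 (23.8 and 75.0), against 31.3 (20.3 and 59.5) at coding starts without a tRNA gene. So away from promoters the tRNA summits were slightly higher in the middle and had few members at the top.

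Listed summits were also dense around tRNA genes. Windows reaching 500 bp to each side of their starts, merged where they overlap, covered 220 kb. They held 60.5 pooled summits per 100 kb, against 51.2 in the windows of protein-coding TSSs and 22.4 over the 6 arms. Replicate 1 gave 64.1 against 53.7 in the windows of protein-coding TSSs, and replicate 2 gave 45.9 against 47.5. In replicate 2 the tRNA windows were thus not denser than the protein-coding ones. Leaving out every base within 500 bp of a coding TSS, the tRNA windows held 55.1 pooled summits per 100 kb, 59.3 in replicate 1 and 41.6 in replicate 2. The arms as a whole, without the same bases, held 18.7 pooled summits per 100 kb, 18.4 in replicate 1 and 19.2 in replicate 2. Thresholded summits numbered 5.0 per 100 kb in the whole tRNA windows, against 12.5 in the windows of protein-coding TSSs and 2.98 over the 6 arms. Without the bases near a coding TSS they numbered 1.04 in the tRNA windows, from 2 summits, against 1.75 on the arms.

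**Figure D3:**
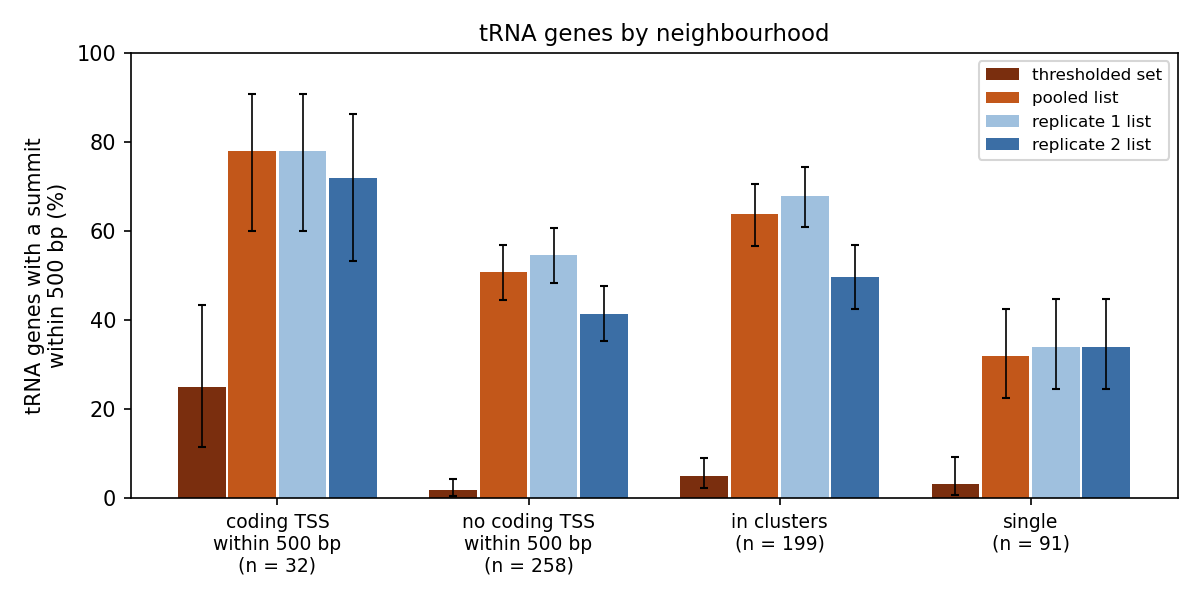
Share of tRNA genes (%) with a summit within 500 bp, by neighbourhood, in the thresholded set, the pooled list and each replicate's list; whiskers are exact binomial 95% intervals. The thresholded share is 25.0% with a protein-coding TSS within 500 bp and 1.94% without, and the pooled share 63.8% in clusters and 31.9% for single genes.

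Clustered tRNA genes were listed more often than single ones. In the pooled list 127 of 199 clustered genes (63.8%, 56.7 to 70.5) had a summit, against 29 of 91 single genes (31.9%, 22.5 to 42.5). Replicate 1 gave 67.8% against 34.1%, and replicate 2 gave 49.7% against 34.1%. Among genes without a coding TSS within 500 bp the pooled shares were 61.5% in clusters and 28.6% for single genes. Neighbours share summits, which raises the count of genes but not that of summits, so the density was also taken. It was 76.1 pooled summits per 100 kb in windows of clustered genes, against 38.4 in windows of single genes. In replicate 2 these densities were 50.5 and 39.5, and in replicate 1 they were 80.0 and 41.7. The gap between clustered and single genes was therefore smaller in replicate 2.

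In the thresholded set the 2 kinds did not separate, with 10 clustered genes (5.03%, 2.44 to 9.05) against 3 single genes (3.30%, 0.685 to 9.33). At least 1 pooled summit was found in 54 of the 69 clusters and a thresholded one in 7. The 43 genes in clusters of 5 or more had a pooled summit in 33 cases (76.7%) and a thresholded one in 1. The cluster of 5 glutamate and 2 initiator methionine genes that holds tRNA:Glu-TTC-1-5 had a pooled summit at all 7 genes, from 6 summits. A cluster of 5 arginine and 2 serine genes on X had one at 2 of its 7 genes, and a cluster of 4 serine genes on 3R at none of them in any list. Genes inside protein-coding genes had a pooled summit in 66 of 134 cases (49.3%), against 90 of 156 outside (57.7%), with overlapping intervals of 40.5 to 58.0 and 49.5 to 65.6.

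Pooled summits were spread widely around the tRNA starts. Of the 156 genes with a pooled summit, the strongest one lay upstream of the gene in 79, in the gene in 14 and downstream in 63. The distance was at most 250 bp in 83. In 100 bp bins a summit was counted once for each gene in range, so 1 summit could enter several bins. Of the 133 pooled summits at tRNA genes, 59 were near 2 or more of them. How far this shapes the spread was not tested. The number of pooled summits per 100 tRNA genes was highest at 200 to 100 bp upstream, at 10.3. It stayed between 5.52 and 8.97 in the other bins within 500 bp, and between 2.07 and 6.21 from there to 2000 bp. In the first 100 bp, where most of a gene with its A and B boxes lies, it was 6.90.

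**Figure D4:**
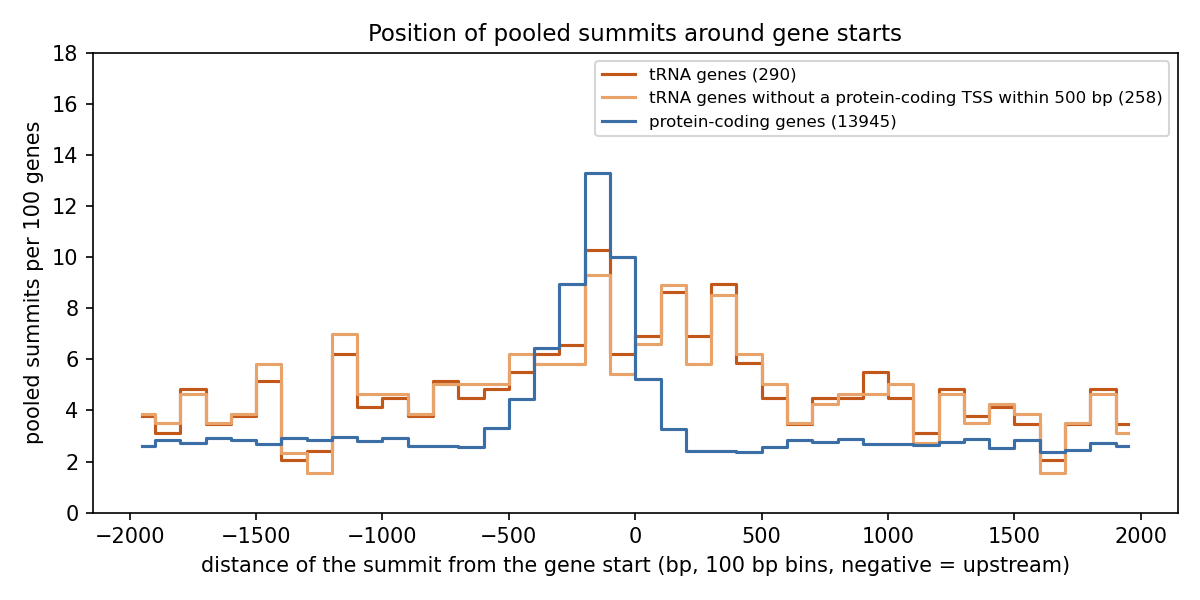
Pooled summits per 100 genes in 100 bp bins of distance from the gene start, negative upstream, for tRNA genes, for those without a protein-coding TSS within 500 bp, and for protein-coding genes. A summit is counted once for each gene in range, so neighbouring genes share summits. The tRNA curve is highest, at 10.3, at 200 to 100 bp upstream, where the protein-coding curve has a single peak, and stays raised on both sides of the start.

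The strongest tRNA summits below the threshold lay away from coding starts, as did most pooled summits at tRNA genes (106 of 133). The serine gene tRNA:Ser-AGA-2-4 on 2L, a single gene, had 2 pooled summits, the stronger with a signal of 55.0 at -126 bp and the other with 51.6. Its strongest replicate summits lay downstream of the start, at 119 bp with a signal of 18.4 in replicate 1 and at 76 bp with 35.2 in replicate 2. On 3L, tRNA:Cys-GCA-1-1, tRNA:Cys-GCA-1-2, tRNA:Cys-GCA-1-3 and tRNA:Lys-CTT-1-12 shared 1 summit of 54.8, with 24.1 in replicate 1 and 25.7 in replicate 2. In replicate 2 the summit was out of range of tRNA:Cys-GCA-1-1. This cluster of 6 genes lies in Cht7, a chitinase gene. The asparagine gene tRNA:Asn-GTT-1-1, inside EcR, the ecdysone receptor gene, had a summit 5 bp after its start with a signal of 53.8, with 22.9 in replicate 1 and 22.6 in replicate 2. None of these 6 genes had a protein-coding TSS within 500 bp. Among all tRNA genes with a pooled summit, 131 of 156 had none either.

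The pooled summits at tRNA genes were also looked up in each library. Of the 133, 115 overlapped a region of replicate 1, 97 one of replicate 2 and 84 both (63.2%), against 55.1% of all pooled summits. Divided by its replicate 1 value, the replicate 2 signal was 1.05 at the median tRNA summit (quartiles 0.813 and 1.45), against 1.21 (0.924 and 1.58) over all pooled summits. The tRNA summits were thus somewhat lower in replicate 2, relative to the rest, and the ranges overlapped.

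Every isotype but selenocysteine, which has 1 gene, had at least 1 gene with a pooled summit. The share was highest for asparagine and tyrosine, with 8 of 10 genes each, followed by glycine with 14 of 20, against 53.8% of all tRNA genes. A summit in both replicates was found at 6 of 10 asparagine genes, 3 of 10 tyrosine genes and 8 of 20 glycine genes, against 37.2% of all tRNA genes. The pooled share was lowest among the larger isotypes for alanine and threonine, with 7 of 17 each. Among the small ones it was lowest for elongator methionine, with 1 of 6, against 4 of 6 for initiator methionine. By anticodon, 6 of 6 genes for glutamate TTC and 8 of 10 for arginine ACG had a pooled summit, against 2 of 10 for arginine TCG and 0 of 6 for serine GCT, whose genes had no summit in either replicate as well. Thresholded summits occurred in 9 isotypes, with 2 genes in each of glycine, phenylalanine, tryptophan and valine. With so few genes per class and shared clusters, the differences between isotypes are given as counts only.

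**Figure D5:**
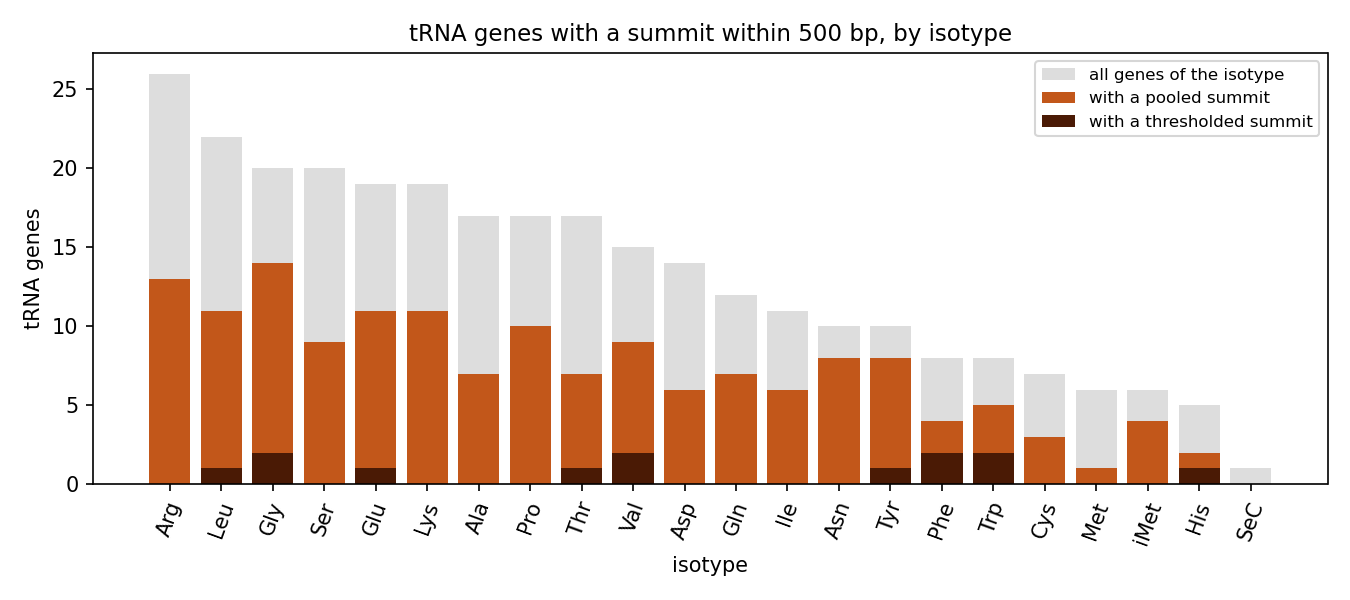
Number of tRNA genes of each isotype (grey), with a pooled summit within 500 bp (orange) and with a thresholded summit (dark brown). Asparagine and tyrosine reach 8 of 10 genes in the pooled list, and elongator methionine 1 of 6.

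Identical gene copies often differed in what surrounded them. In 31 of 43 sets of identical genes, some copies had a pooled summit and some had none, while 6 sets had one at every copy and 6 at no copy. Over all 290 tRNA genes the share with a pooled summit was 53.8%. Mixed sets would arise at that share alone, and their number was not tested against it. Thresholded summits were found in 8 sets, and in 3 of those at 2 copies. Among the largest sets, 10 of 13 identical lysine CTT genes had a pooled summit, against 8 of 13 for glycine GCC and 5 of 12 for aspartate GTC. Of 9 identical glutamate CTC genes 1 had a pooled summit, of signal 16.3.

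Repeated sequence limits where reads can be placed, so the windows were checked for it. Of the 50-base words within 500 bp of a tRNA start, a median of 96.1% occurred once in the genome, with a lowest value of 28.7%, against a median of 100% for protein-coding genes and 0% for rRNA genes. At least 90% of the words were unique for 259 of the 290 genes. Lower shares were found at tRNA:Glu-CTC-3-4 to tRNA:Glu-CTC-3-7 (28.7% to 58.5%) and tRNA:Arg-TCG-3-1 to tRNA:Arg-TCG-3-4 (65.9% to 77.2%), in groups with few pooled summits. The other glutamate CTC copies of that set had 88.9% to 93.6% and no pooled summit. The serine GCT genes, with no summit, had 90.2% or more. Low shares were also found at tRNA:Leu-AAG-1-2 (59.5%), tRNA:Leu-AAG-1-3 (59.2%) and tRNA:Ser-AGA-2-3 (56.4%), each with a pooled summit. Of the 31 genes with under 90% unique words, 15 (48.4%, 30.2 to 66.9) had a pooled summit. Among the 259 with at least 90% it was 54.4% (48.2 to 60.6). Whether repeated sequence lowers the counts of summits was not tested. In the gene bodies themselves 238 of 290 had no unique 50-base word. Genes with a pooled summit had a median of 95.0% in their windows and those without one 96.6%. Whether reads from copies were kept, shared or dropped by the authors is not given in the sources used here, and how this touches the number of summits in gene bodies was not tested.

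The internal promoter letters were counted in the genes with and without a summit. In the first 100 bp the A box letters were found in 35.2% of tRNA genes, against 2.78% of protein-coding genes, and the B box letters in 56.2%, against 0.516%, on the gene's strand. These are literal matches, and variants with another base or spacing are missed. The A box letters were in 32.7% of the genes with a pooled summit and 38.1% of those without, and the B box letters in 55.8% and 56.7%. In the 13 genes with a thresholded summit they were in 30.8% (A box) and 38.5% (B box), and the differences were not tested. A run of TTTT stood in the 40 bp after 287 of 290 tRNA genes (99.0%), against 48.7% of protein-coding genes. In the 101 bp around the 133 pooled tRNA summits the DRE letters, on either strand, were found in 0, which allows a share of up to 2.26% (3 counts of 133, in place of an exact interval), against 0.870% of all pooled summits. The G+C content of the 51 bp at the summit was 37.6 ± 12.5% (SD over 133 summits) at tRNA genes and 37.4 ± 12.7% over all pooled summits.

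Other genes of the RNA polymerase III pathway were set beside the tRNA genes. Of 8 further RNA polymerase III transcripts other than 5S rRNA, 4 had a pooled summit and 1 a thresholded one. Of all genes, 45.5% had a pooled and 14.7% a thresholded summit. The thresholded summit among the 8 was at snRNA:7SKa, the RNA that holds the elongation factor P-TEFb. It had 82.4 in the pooled list, 30.1 in replicate 1 and 54.1 in replicate 2. The U6 spliceosomal RNA genes snRNA:U6:96Ab and snRNA:U6:96Ac had pooled signals of 52.0 and 54.9. The 96 genes for 5S rRNA and 4 5S pseudogenes had no summit in any list, and at most 47.5% of the 50-base words in any of their windows were unique. Both 7SL RNA genes had none either, with 5.25% of the words in their windows unique.

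The protein genes of the polymerase and its factors more often had a thresholded summit than the tRNA genes, with 7 of 20 in the thresholded set and 13 of 20 in the pooled list. Bdp1 and Brf, subunits of TFIIIB, had pooled signals of 433 (198 in replicate 1 and 236 in replicate 2) and 301 (147 and 158 in the same order). The polymerase subunit genes Polr3E, Polr3F and Polr1D had pooled signals of 154, 73.8 and 62.9. Pbp95, a subunit of the complex that binds small nuclear RNA promoters, had 86.3. Of 24 genes for tRNA processing and modification, 6 had a thresholded summit and 18 a pooled one. Among them were RluA-1, a pseudouridine synthase gene, at 550 (231 in replicate 1 and 313 in replicate 2), La, whose protein binds the 3′ ends of new RNA polymerase III transcripts, at 114, RNaseZ, the 3′ trailer nuclease, at 86.2, Rtca, the RNA 3′ phosphate cyclase, at 84.9, and RtcB, the tRNA ligase, at 65.5. These are protein-coding genes, of which 17.7% had a thresholded and 50.1% a pooled summit, and no test of the lists was made.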

How the data were processed

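ChIP-seq region lists of 2 libraries of 1 group were used, in dm6. Regions of each library and of the pooled reads were called by the authors against a control, and the thresholded set was selected by irreproducible discovery rate, per the deposited README texts. How reads were aligned and regions called, and at which threshold, is not given in the sources used here. Each region's signal is the authors' deposited value in their own units, and it is not scaled to a common depth. The -log10 q values deposited by the authors were read only to describe the lists. Sequencing depth is unknown, so no value carries an error from read counting. Lists for dm3 were not used here.

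Genes and TSSs came from Ensembl release 115, without transposable element entries, and sequences from the RefSeq assembly of dm6. A background gene was counted by the TSSs of all its transcripts, a tRNA gene by its 5′ end. For a thresholded peak the replicate signal is that of the strongest overlapping region, and otherwise that of the strongest summit within 500 bp of the gene's start, whose position can differ from the pooled one. Shares have exact binomial (Clopper-Pearson) 95% intervals. A tRNA cluster joined starts within 2 kb. Unique words were those of 50 bases found once in the genome on either strand. Counting was tested on simulated data. The members and lists were chosen with earlier results of these data known. The tRNA genes named are all with a thresholded summit, the 6 with the highest pooled signal below it, and the 3 nearest on each side of 500 bp, with pathway genes that have a thresholded summit, some of which are not reported here. Isotypes, anticodons, clusters and copies named beyond these were chosen after their values were seen, as were tRNA:Tyr-GTA-1-6, tRNA:Tyr-GTA-1-7, tRNA:Thr-TGT-2-2, tRNA:Thr-TGT-2-4 and the U6 genes. The symbols Trmt1, Trmt10A, Thg1 and CCA2 matched no gene name. Alternatives were other distances, only the stronger peaks, peaks that overlap the gene, single replicates and other word lengths. The tools were pandas 2.3.3, SciPy 1.17.1, Matplotlib 3.10.9 and NumPy 2.4.6 under Python 3.11.15.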

Additional observations from a re-analysis of the deposited data

How the results depend on the processing

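The 13 tRNA genes with a thresholded summit became 8 at 250 bp, 26 at 1000 bp, 5 with the 1997 strongest peaks and 7 when the peak had to overlap the gene. With the 3995 strongest regions of 1 replicate they were 18 to 19, and genes of other kinds were not set beside them at that cut. The 156 genes with a pooled summit became 95 at 250 bp, or 32.8%, against 37.6% of protein-coding genes (34.2% by 5′ ends alone). Without a coding TSS within 500 bp, the thresholded count of 5 became 2 at 250 bp and 15 at 1000 bp, and 9 to 10 in single replicates, and the pooled count of 131 became 77 at 250 bp. For clustered genes the thresholded count of 10 became 20 at 1000 bp and 14 to 16 in single replicates, and the pooled count of 127 became 81 at 250 bp. For single genes the thresholded count of 3 became 1 at 250 bp, 6 at 1000 bp and 2 to 5 in single replicates, and the pooled count of 29 became 14 and 47 at those distances. The median signal of 85.5 at the 13 genes was 39.7 to 52.5 in single replicates, whose signals are on a smaller scale. Of the 106 tRNA summits without a coding TSS, 2 were thresholded, against 1 and 6 when summits up to 250 and 1000 bp from a tRNA start were taken, alternatives chosen after seeing the data. Larger distances hold more of both, so these counts move by construction. At 1000 bp tRNA genes had a thresholded summit in 8.97%, against 20.4% of protein-coding genes, and at 250 bp in 2.76%, against 13.9%. No paired analysis was possible because there is 1 group. The lists give no reads, and 238 gene bodies have no unique 50-base word, so signal within genes is the least certain.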
